A study of Mus musculus with 12 samples.

Results

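Genes for protein folding and export in the endoplasmic reticulum (ER) were followed across 4 cultures of mouse CD4+ T cells. The group holds 32 genes chosen by name, and all 32 were on the array, under 63 probes, among 27597 named genes. By role they are 4 sensors and transcription factors of the unfolded protein response (UPR), 9 chaperones and cochaperones of the Hsp70 and Hsp90 classes, 2 lectin chaperones, 4 protein disulfide isomerases, 8 genes of ER-associated degradation (ERAD) and 5 genes of the translocon and signal peptidase. Each gene was read from its probe with the highest mean signal. These probes were well above background on all 12 arrays, so all 32 genes were among the 17925 tested.

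The cultures were started from naive CD62L+ T cells of C57BL/6 mice, taken from spleen and lymph nodes. All were activated with plate-bound anti-CD3 and soluble anti-CD28, expanded on day 3 and harvested after 5 days. Th2 cultures were given IL-4 (20 ng/ml) while IFN-γ was blocked with an antibody. Th9 cultures, which give helper cells that secrete IL-9, were given the same plus TGF-β at 2 ng/ml, and received IL-4 and TGF-β again at expansion. Treg cultures, which give regulatory T cells, held TGF-β and an antibody against IL-4, with IL-2 added at expansion. Stimulated Th9 cultures received anti-CD3 at 1 µg/ml for 6 h after the 5 days. Each group had 3 arrays, and the labels do not say whether these came from separate cultures or animals, so each p-value reflects only how far these samples spread, which can be technical spread. The question put to the data was whether the cultures that express cytokine genes carry more RNA for the ER genes, among them those assigned to the transcription factors XBP1 and ATF6.

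A protein that is to be secreted enters the ER through the Sec61 channel, loses its signal peptide and is folded by chaperones, lectins and disulfide isomerases, while proteins that fail to fold are sent back to the cytosol for degradation. When unfolded proteins build up, 3 membrane sensors respond. IRE1α, encoded by Ern1, splices Xbp1 RNA so that it gives the active transcription factor. ATF6 is released by cleavage and enters the nucleus, and PERK, encoded by Eif2ak3, slows translation. Plasma cells use XBP1 to enlarge the ER before they secrete antibody. The array reads total RNA of each gene and shows neither the splicing of Xbp1 nor the cleavage of ATF6.

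XBP1 and ATF6 are known to act through the ER stress element (ERSE), CCAAT and CCACG with 9 bases of any kind between them. This element was searched on both strands in the 250 bases before each RefSeq start site (build GRCm38.p6), a window that 26 of the 32 genes had. It was present in 9 of the 26 (34.6%), beside 35 of 27025 genes (0.130%) in the whole table. The 32 genes were chosen by name, with genes assigned to these factors among them, so this contrast is a description and not a test. A related element, ERSE-II, ATTGG and CCACG with 1 base between them, was present in Herpud1 alone among the 26, beside 10 of all genes (0.0370%). The UPR element TGACGTGG was in none of the 26, beside 163 of all genes (0.603%). The 5-letter core CCACG, which lies inside ERSE and ERSE-II, was present in 20 of the 26 (76.9%), beside 31.0% of all genes. The stretches with an ERSE or ERSE-II are shown because they are what these members share in sequence. They read 5′ to 3′ on the strand of the gene, each element is in capitals, and 20 bases stand on either side. An ERSE on the other strand reads CGTGG, 9 bases, ATTGG.
Hspa5, chr2:34772005-34772063, plus strand: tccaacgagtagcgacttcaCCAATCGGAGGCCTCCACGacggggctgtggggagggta
Hsp90b1, chr10:86705513-86705676, minus strand: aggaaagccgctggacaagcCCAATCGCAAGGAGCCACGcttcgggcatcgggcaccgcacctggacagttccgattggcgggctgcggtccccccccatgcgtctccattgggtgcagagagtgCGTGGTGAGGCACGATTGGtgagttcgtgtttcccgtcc
Dnajc3, chr14:118937807-118937865, plus strand: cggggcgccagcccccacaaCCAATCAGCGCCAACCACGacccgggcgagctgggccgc
Creld2, chr15:88819500-88819558, plus strand: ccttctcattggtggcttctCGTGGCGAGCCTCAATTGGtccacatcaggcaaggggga
Calr, chr8:84847055-84847113, minus strand: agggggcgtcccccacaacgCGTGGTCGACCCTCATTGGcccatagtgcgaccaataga
Canx, chr11:50325780-50325838, minus strand: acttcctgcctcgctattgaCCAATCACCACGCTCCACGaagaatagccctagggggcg
Pdia6, chr12:17266471-17266529, plus strand: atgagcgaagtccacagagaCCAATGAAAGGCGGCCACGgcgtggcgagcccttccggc
Syvn1, chr19:6046512-6046570, plus strand: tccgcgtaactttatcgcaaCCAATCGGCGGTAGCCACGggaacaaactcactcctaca
Derl3, chr10:75893222-75893280, plus strand: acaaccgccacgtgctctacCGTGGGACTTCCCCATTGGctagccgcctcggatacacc
Herpud1, chr8:94386357-94386407, plus strand: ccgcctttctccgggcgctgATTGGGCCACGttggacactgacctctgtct
Counted from the start site, the elements lay between position -212, in Hsp90b1, and position -26, in Syvn1. Hsp90b1 held 2 of them, on opposite strands. A match of letters is a description and not a measured binding site.

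**Figure D1:**
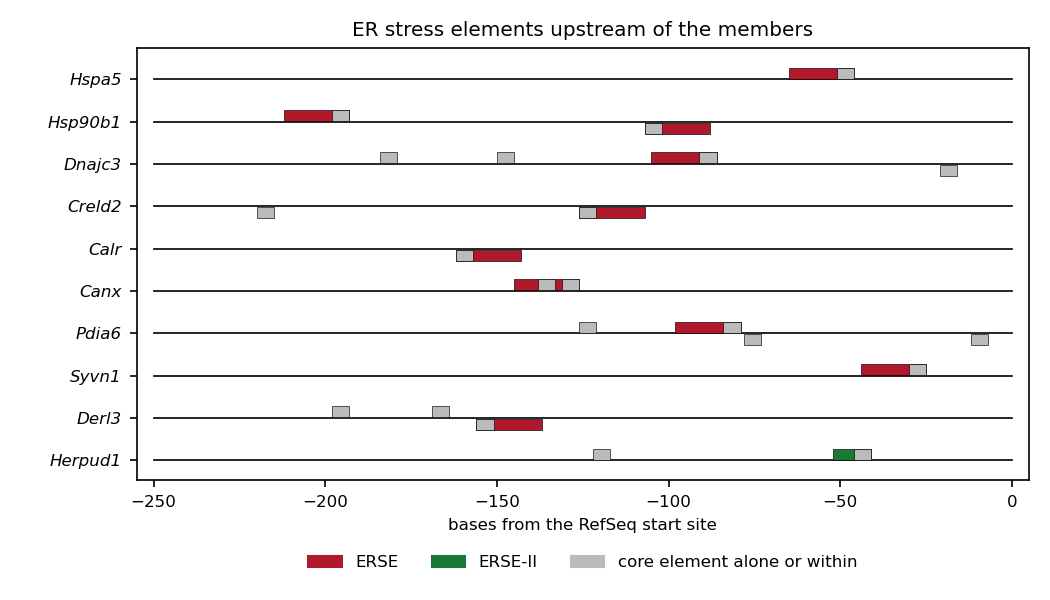
Position of ERSE (red), ERSE-II (green) and the core CCACG (grey) in the 250 bases before the start site of the 10 members that hold an ERSE or ERSE-II; the x axis gives bases from the RefSeq start site, boxes above a line lie on the strand of the gene and boxes below it on the other strand. The elements of Calr, Creld2 and Derl3 lie on the other strand, and Hsp90b1 has 1 on each.

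Levels below are log2 of the processed signal relative to the 75th percentile of the array, and a difference is that of 2 group means, with its limma standard error (SE). Each group had n = 3 arrays, and SD is the standard deviation over them. Genes whose adjusted p (limma, Benjamini-Hochberg over all genes tested) was under 0.05 are said to be called. Arrays of a group correlated at 0.988 to 0.995 over genes, and 59.8 to 63.7% of probes per array were well above background. The arrays lay on 3 slides, as the scanner headers show: Th9 arrays shared no slide with Th2 arrays, nor with Treg arrays. Slide 1 held the 3 Th2 arrays and Treg array 1. Slide 2 held Treg arrays 2 and 3 and stimulated arrays 1 and 2, and slide 3 the 3 Th9 arrays and stimulated array 3. A second fit therefore held the slide as a term, with groups linked through the slides they share. In it, Th2 against Treg rests on Treg array 1 alone, and stimulation on stimulated array 3 alone. Th9 against Treg runs through stimulated array 3, and Th9 against Th2 through that array and Treg array 1. Values of this fit are given as slide-blocked, and its median SE over genes was 0.367 against 0.166 without the term. All 11 T cell marker genes tested were well above background in every group. Cd3e, a chain of the T cell receptor complex, was at 0.34 in Th2, 0.80 in Th9, 0.36 in stimulated Th9 and 1.75 in Treg cultures. Of the 11, 7 were lower in Th9 (63.6%) and 8 lower in Th2 (72.7%) than in Treg cultures, beside 35.3% and 33.5% of all genes. None was higher in Th9 and 1 was higher in Th2 cultures. Il9 was at -1.69 in Th9 and 5.52 in stimulated Th9 cultures and not well above background in the others. All 32 genes were bright on every array, so the shares called among the 14496 genes with that property are given as well: 7.12% higher and 9.78% lower for Th9 against Th2, 29.3% and 36.2% in Th9 than in Treg, 30.5% and 33.9% in Th2 than in Treg, and 36.0% and 31.4% after stimulation.

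The arrays numbered 3 stood apart for the ER genes. In Th2 cultures array 3 was the highest of its group for 26 of the 32 genes, beside 33.6% of all genes, and in Th9 cultures for 27 of 32, beside 36.0%. Th9 array 1 was the lowest of its group for 26 of 32, beside 38.9% of all genes. In stimulated Th9 cultures array 3 was the lowest for 23 of 32, beside 39.7% of all genes. The median SD of the 32 genes was 0.20 in Th2 and 0.24 in Th9 cultures, above the 0.16 and 0.17 over all genes, while it was 0.14 in stimulated Th9 and 0.11 in Treg cultures, below the 0.18 and 0.17 over all genes. The values without these arrays, an alternative chosen after the data were seen, are given with each comparison.

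**Figure D2:**
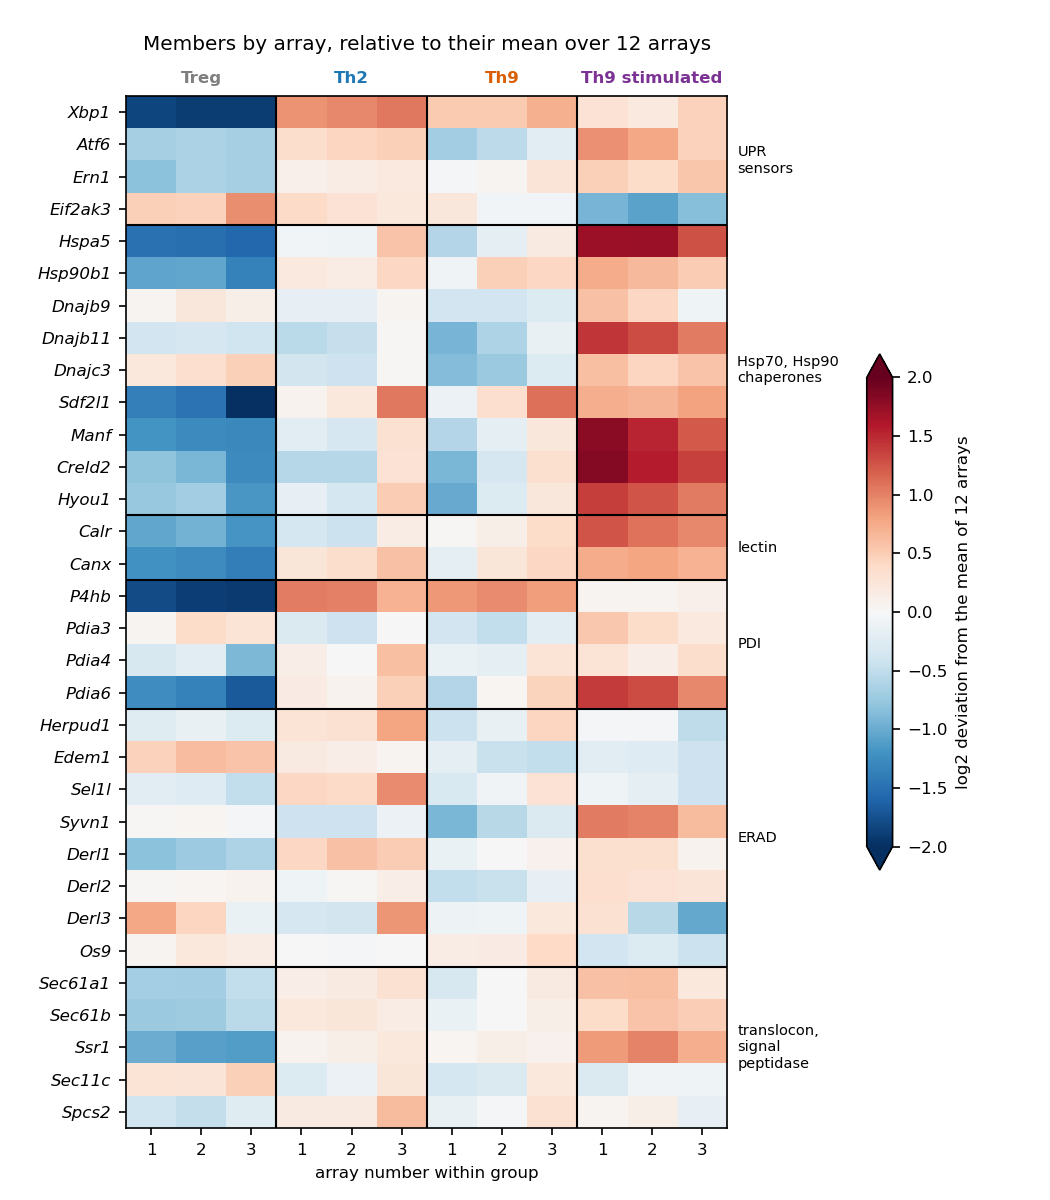
Heat map of the 32 genes (rows, by role) on the 12 arrays (columns, by group); colour gives the log2 deviation of each array from that gene's mean over the 12 arrays, with values past 2 at the end colours. Xbp1 and P4hb are lowest on the 3 Treg arrays, and Hspa5, Manf, Creld2 and Dnajb11 are highest on the 3 stimulated Th9 arrays.

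Between Th9 and Th2 cultures 26 of the 32 ER genes were not called. In Th9 cultures 6 of the 32 genes were lower than in Th2 cultures and none was higher: the transcription factor genes Atf6 and Xbp1, and the ERAD genes Sel1l, Derl1, Edem1 and Derl2. The share lower was 18.8%, beside 9.25% of all genes, and 7.76% of all genes were higher. At an unadjusted p under 0.05, 2 genes had a higher level in Th9 cultures, Calr (0.38 ± 0.16, adjusted p = 0.135) and Os9 (0.25 ± 0.10, adjusted p = 0.103), and both were called with normexp background correction. The median difference of the 32 genes was -0.25, beside -0.03 over all genes, and the chaperones and disulfide isomerases held no called gene. These calls rest on the brightest probe of each gene. A dimmer probe of Os9 was called higher (0.44 ± 0.13, adjusted p = 0.0404). A dimmer probe of the cochaperone Dnajb9 was called lower (-0.58 ± 0.11, adjusted p = 0.00626).

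Atf6, which encodes the membrane-bound transcription factor, read 1.56, 1.64 and 1.68 on the Th2 arrays and 0.51, 0.68 and 0.97 on the Th9 arrays. The groups did not overlap, and the difference was -0.90 ± 0.14 (SE; adjusted p = 0.00182), or 1.87-fold lower. Xbp1 read 3.43, 3.48 and 3.57 in Th2 and 3.04, 3.04 and 3.23 in Th9 cultures, again without overlap. The difference was -0.39 ± 0.10 (adjusted p = 0.0252). Leaving out any of the 3 Th2 arrays, or Th9 array 1 or 2, moved that adjusted p to between 0.0518 and 0.0919. Ern1 (-0.06 ± 0.11, adjusted p = 0.739) and Eif2ak3 (-0.25 ± 0.14, adjusted p = 0.252) were not called.

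Among the ERAD genes, Edem1, a lectin that draws misfolded glycoproteins from the folding cycle, read 2.92, 2.86 and 2.79 in Th2 and 2.55, 2.29 and 2.24 in Th9 cultures. Every Th9 array lay below every Th2 array, with a difference of -0.50 ± 0.11 (adjusted p = 0.0118). The dimmest probe of Edem1 was lower as well (-0.45 ± 0.12, adjusted p = 0.0243), and another was not called (-0.29 ± 0.15, adjusted p = 0.23). Derl1, a channel component of ERAD, was lower by -0.52 ± 0.11 (adjusted p = 0.00986) and its relative Derl2 by -0.39 ± 0.11 (adjusted p = 0.0309). Derl1 probes with differences of -0.44 ± 0.12 and -0.41 ± 0.12 were called lower too, and another was not called (-0.09 ± 0.14, adjusted p = 0.735). The other, dimmer probe of Derl2 was not called and lay above 0 (0.22 ± 0.13, adjusted p = 0.279). The Derl2 call was lost without Th2 array 2 or 3 or Th9 array 1 or 2 (adjusted p from 0.0819 to 0.107). Sel1l, the scaffold of the HRD1 ubiquitin ligase, differed by -0.61 ± 0.19 (adjusted p = 0.0488), at the edge of the threshold. Its other probes were not called (-0.16 ± 0.15 and -0.39 ± 0.21, adjusted p = 0.503 and 0.239). Its call was lost without any of the 3 Th2 arrays, Th9 array 1 or 2, stimulated array 1 or 2, or Treg array 1 or 2 (adjusted p from 0.0592 to 0.158). Herpud1, which is part of the same complex, differed by -0.50 ± 0.23 (adjusted p = 0.158). Arrays of the same number in Th2 and Th9 cultures deviated together (correlations of 0.20, 0.18 and 0.41), and with the array number as a block Sel1l lost its call (-0.61, adjusted p = 0.0693) while the other 5 kept theirs. With that block and only the 6 arrays compared, a fit chosen after the data were seen, 7 genes were lower, the 6 and Herpud1 (adjusted p = 0.044).

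None of the 6 calls held when blocked by slide, a fit that called 1.05% of all genes higher and 0.720% lower. The slide-blocked median of the 32 genes was -0.00, Atf6 differed by -0.55 (adjusted p = 0.481) and Xbp1 by -0.54 (adjusted p = 0.327). The ERAD genes differed by -0.45 for Edem1, -0.42 for Derl1, -0.36 for Derl2 and -0.20 for Sel1l (adjusted p = 0.485, 0.489, 0.659 and 0.924). All 6 kept their sign, while 12 genes that were not called changed theirs. Where a change of 1.5-fold was also required, 6.17% of all genes were lower, and Atf6 and Sel1l remained of the 6. Since no slide held both cultures, there is no value within a slide. The number lower was 3 without Th2 array 2, Th2 array 3, Th9 array 1 or Th9 array 2, and it was 8 without all the arrays numbered 3, where 1 gene, Calr, was higher.

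Against Treg cultures, Th9 cultures carried more RNA of 15 of the 32 ER genes (46.9%), among them Hspa5, Hsp90b1, Canx, Calr, P4hb and Xbp1, beside 28.8% of all genes. The 8 lower genes (25.0%) were Eif2ak3, Pdia3, Dnajc3, Dnajb9, Edem1, Syvn1, Derl2 and Sec11c, a share below the 35.3% of all genes. The median difference of the 32 was 0.49, beside -0.11 over all genes. P4hb was 6.71-fold, Xbp1 5.5-fold and Sdf2l1 4.19-fold higher, and the largest decreases were those of Dnajc3 (1.96-fold) and Edem1 (1.9-fold).

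In Th2 cultures 20 of the 32 genes were higher than in the same Treg cultures (62.5%) and 3 were lower (9.38%), beside 29.3% and 33.5% of all genes. The median difference was 0.83, beside -0.08 over all genes. The counts of the 2 comparisons share the Treg arrays, so they are not independent of each other. By name, 15 genes were higher in Th9 and in Th2 cultures than in Treg cultures, and Dnajc3, Edem1 and Pdia3 were lower in both.

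Of the sensors and transcription factors, Xbp1 was the gene with the clearest separation. It read 0.69, 0.62 and 0.63 on the Treg arrays, far below every Th9 and Th2 array. The difference was 2.46 ± 0.10 for Th9 (adjusted p = 1.97e-08) and 2.85 ± 0.10, or 7.19-fold, for Th2 cultures (adjusted p = 8.36e-09). Ern1, which encodes the enzyme that splices Xbp1, read -2.73, -2.53 and -2.57 in Treg and -1.95, -1.85 and -1.64 in Th9 cultures. It was higher by 0.80 ± 0.11 in Th9 (adjusted p = 7.6e-05) and by 0.86 ± 0.11 in Th2 cultures (adjusted p = 4.35e-05). Atf6 read 0.55, 0.58 and 0.55 in Treg cultures, inside the range of the Th9 arrays (0.17 ± 0.14, 95% interval -0.14 to 0.47, adjusted p = 0.316; a dimmer probe was called higher, 0.43 ± 0.14, adjusted p = 0.0188) and below every Th2 array (1.07 ± 0.14, adjusted p = 6.07e-05). Eif2ak3 was the exception among the sensors, with 0.50, 0.49 and 0.95 in Treg and 0.24, -0.04 and -0.03 in Th9 cultures, lower in Th9 by -0.59 ± 0.14 (adjusted p = 0.00401). In Th2 cultures its difference was -0.33 ± 0.14 (adjusted p = 0.0609).

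Of the Hsp70 and Hsp90 chaperones and cochaperones, 4 of 9 were higher (44.4%) and 2 lower (22.2%) in Th9 than in Treg cultures. The shares of all genes were 28.8% and 35.3%. In Th2 cultures 5 of 9 were higher (55.6%) and 1 lower (11.1%), beside 29.3% and 33.5% of all genes. Hspa5 encodes BiP, the Hsp70 of the ER and the classical target of ATF6. It read 4.48, 4.47 and 4.41 in Treg, 5.39, 5.79 and 6.16 in Th9 and 5.93, 5.88 and 6.55 in Th2 cultures. The Treg arrays lay close together and below all others, and Hspa5 was 2.51-fold higher in Th9 (1.33 ± 0.22, adjusted p = 0.000401) and 3.17-fold higher in Th2 cultures (1.66 ± 0.22, adjusted p = 7.85e-05). Hsp90b1, the Hsp90 of the ER (GRP94), was higher by 1.42 ± 0.16 and 1.41 ± 0.16 (adjusted p = 1.85e-05 and 1.93e-05). Sdf2l1, a partner of BiP, read 0.46, 0.35 and -0.20 in Treg against 1.71, 2.16 and 2.93 in Th9 cultures. Its Th9 arrays spread widely (SD 0.62) but lay above all Treg arrays. It was higher by 2.07 ± 0.33 in each culture (adjusted p = 0.000254 for Th9 and 0.00025 for Th2). Manf, a secreted factor released under ER stress, was higher by 1.06 ± 0.23 and 1.17 ± 0.23 (adjusted p = 0.00196 and 0.0011).

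The cochaperones went other ways. Dnajc3, a J protein known as P58IPK, read 2.26, 2.39 and 2.52 in Treg and 1.19, 1.30 and 1.77 in Th9 cultures. It was lower by -0.97 ± 0.17 in Th9 (adjusted p = 0.000452) and by -0.60 ± 0.17 in Th2 cultures (adjusted p = 0.00937; slide-blocked -0.47, adjusted p = 0.154). Dnajb11, a J protein of BiP, differed by -0.20 ± 0.21 and 0.04 ± 0.21 (adjusted p = 0.426 and 0.862). Dnajb9, also a J protein, was lower in Th9 cultures by -0.47 ± 0.16 (adjusted p = 0.0219), but the slide-blocked difference was 0.09 (adjusted p = 0.757), the call was lost without Th9 array 1 or 2 or Treg array 2 (adjusted p from 0.0557 to 0.0704), and another probe of the gene was called higher (0.34 ± 0.11, adjusted p = 0.02). Hyou1, a large Hsp70 relative, was called in Th2 (0.87 ± 0.31, adjusted p = 0.0282; 0.112 without Th2 array 3 and 0.0931 without Treg array 3; slide-blocked 0.76, adjusted p = 0.21) and not in Th9 cultures (0.52 ± 0.31, adjusted p = 0.158; 0.0201 without Th9 array 1). Creld2 was not called in either (0.69 ± 0.31 in Th9, adjusted p = 0.0774; 0.0169 without Th9 array 1; 0.71 ± 0.31 in Th2, adjusted p = 0.0704; 0.0411 without Th9 array 1 and 0.0369 without Th9 array 3).

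Both lectin chaperones, which hold newly made glycoproteins, were higher in both cultures. Canx, calnexin, read 3.78, 3.72 and 3.60 in Treg and 4.81, 5.23 and 5.40 in Th9 cultures, and the difference was 1.45 ± 0.15 (adjusted p = 1.13e-05). In Th2 cultures it was 1.68 ± 0.15 (adjusted p = 3.79e-06). Calr, calreticulin, was higher by 1.22 ± 0.16 and 0.84 ± 0.16 (adjusted p = 6.76e-05 and 0.000923).

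The disulfide isomerases split. P4hb, the canonical protein disulfide isomerase, read 3.29, 3.19 and 3.15 in Treg, 5.95, 6.02 and 5.90 in Th9 and 6.10, 6.09 and 5.76 in Th2 cultures. The difference was 2.75 ± 0.11 for Th9 (adjusted p = 1.44e-08) and 2.77 ± 0.11 for Th2 cultures (adjusted p = 1.5e-08), and the Th9 and Th2 arrays overlapped. Pdia6 was higher by 1.39 ± 0.24 and 1.66 ± 0.24 (adjusted p = 0.000493 and 0.000143). Pdia3, which works with the lectin chaperones and with the loading of MHC class I, moved the opposite way. It read 4.03, 4.34 and 4.24 in Treg and 3.58, 3.47 and 3.75 in Th9 cultures, and was lower by -0.60 ± 0.14 in Th9 and by -0.47 ± 0.14 in Th2 cultures (adjusted p = 0.00355 and 0.0137). Slide-blocked, those values were -0.44 and -0.30 (adjusted p = 0.2 and 0.216), and the call in Th2 cultures was lost without Th2 array 2 or Treg array 2 (adjusted p = 0.0587 and 0.0557). Pdia4 was called in Th2 (0.72 ± 0.21, adjusted p = 0.0112; slide-blocked 0.57, adjusted p = 0.166) and not in Th9 cultures (0.47 ± 0.21, adjusted p = 0.0727; 0.0472 without Treg array 2).

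Of the 8 ERAD genes, 12.5% were higher and 37.5% lower in Th9 than in Treg cultures, beside 28.8% and 35.3% of all genes. Derl1 was the only gene higher in Th9 cultures (0.71 ± 0.11, adjusted p = 0.00021). Its other probes disagreed, with 1 called higher (0.64 ± 0.12) and the rest not called (0.12 ± 0.12 and -0.15 ± 0.14, adjusted p = 0.399 and 0.382). Edem1, Syvn1 and Derl2 (-0.41 ± 0.11, adjusted p = 0.00587; slide-blocked -0.37, adjusted p = 0.211) were lower. Edem1 read 3.19, 3.36 and 3.31 in Treg cultures, above every Th9 and Th2 array, and differed by -0.92 ± 0.11 for Th9 (adjusted p = 2.97e-05) and -0.43 ± 0.11 for Th2 cultures (adjusted p = 0.0056; slide-blocked -0.33, adjusted p = 0.0959). Another probe of Edem1 was called higher in Th2 cultures (0.49 ± 0.15, adjusted p = 0.0149), so its direction there depends on the probe. In Th9 cultures that probe was not called (0.21 ± 0.15, adjusted p = 0.255), while the dimmest probe was lower (-0.91 ± 0.12). Syvn1, the ubiquitin ligase HRD1, read 4.55, 4.56 and 4.50 in Treg and 3.61, 3.96 and 4.24 in Th9 cultures (-0.60 ± 0.17, adjusted p = 0.00931; slide-blocked -0.21, adjusted p = 0.624). In Th2 cultures Derl1 (1.22 ± 0.11), Sel1l (0.91 ± 0.19) and Herpud1 (0.68 ± 0.23) were higher, with adjusted p = 3.72e-06, 0.00151 and 0.0229. The Herpud1 call was lost without Th2 array 3, Treg array 1 or Treg array 3 (adjusted p = 0.0898, 0.0564 and 0.0562), and its slide-blocked value was 0.70 (adjusted p = 0.096). Sel1l was not called in Th9 cultures from its brightest probe (0.30 ± 0.19, adjusted p = 0.181), while its other probes were higher by 1.29 ± 0.15 and 2.37 ± 0.21. Os9, a lectin of the same complex, and Derl3 were called in neither, and the probes of Os9 disagreed, with 1 called lower and 1 higher in Th9 cultures.

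Of the 5 translocon and signal peptidase genes, 4 were higher in both cultures (80.0% in each). The shares of all genes higher were 28.8% for Th9 and 29.3% for Th2 cultures. Ssr1, a subunit of the translocon-associated complex, read 2.69, 2.60 and 2.57 in Treg against 3.72, 3.80 and 3.77 in Th9 and 3.75, 3.81 and 3.89 in Th2 cultures. The difference was 1.14 ± 0.10 and 1.20 ± 0.10 (adjusted p = 2.32e-06 and 1.71e-06), and the Th9 and Th2 arrays overlapped. The channel genes Sec61a1 (0.58 ± 0.15 in Th9, 0.82 ± 0.15 in Th2) and Sec61b (0.65 ± 0.10 and 0.87 ± 0.10) were also higher in both, with adjusted p from 2.89e-05 to 0.00607. Spcs2, of the signal peptidase, was higher by 0.41 ± 0.16 in Th9 (adjusted p = 0.0414) and 0.71 ± 0.16 in Th2 cultures (adjusted p = 0.00275). The Th9 call of Spcs2 was lost without Th9 array 2 or 3, stimulated array 1, or Treg array 1 or 2 (adjusted p from 0.0529 to 0.156). A nearly as bright probe of Spcs2 was not called there (0.12 ± 0.13, adjusted p = 0.456). Sec11c, the catalytic subunit, was lower in Th9 cultures by -0.48 ± 0.17 (adjusted p = 0.0321), a call lost when any of Th9 arrays 1 and 2 or the 3 Treg arrays was left out (adjusted p from 0.0519 to 0.114).

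Slide-blocked, 13 genes were higher and 3 lower (Eif2ak3, Dnajc3 and Edem1) in Th9 than in Treg cultures, beside 17.6% and 19.7% of all genes. Sec61b (0.58, adjusted p = 0.0501), Spcs2 (0.64, adjusted p = 0.138) and Sec11c (-0.61, adjusted p = 0.209) were among the calls lost. In Th2 against Treg cultures, 17 were then higher and none lower, beside 24.1% and 26.1% of all genes, and the 3 genes lower before had adjusted p from 0.0959 to 0.216. With at least 1.5-fold required, 27.1% of all genes were lower in Th9 and 26.0% lower in Th2 than in Treg cultures. For Th2 against Treg cultures, the differences within the slide that held 3 Th2 arrays and 1 Treg array are these same slide-blocked estimates, not a further check. All 23 called genes kept their sign there, with a median of 0.79 over the 32 genes. Without the arrays numbered 3, 15 were higher and 9 lower in Th9 cultures and the median difference fell from 0.49 to 0.18. In Th2 cultures 19 were then higher and 7 lower, with a median of 0.61.

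Markers of other cell types also differed between these cultures. Of 12 B cell and plasma cell markers tested, 10 were lower in Th9 (83.3%) and 11 lower in Th2 (91.7%) than in Treg cultures. The shares of all genes lower were 35.3% and 33.5%. The summed level of these markers was 300 to 357 on the Treg arrays, 34.4 to 40.1 on the Th9 arrays and 23.9 to 28 on the Th2 arrays. Jchain, the joining chain gene of plasma cells, was at 0.19 in Treg, -2.21 in Th2 and -5.62 in Th9 cultures (well above background on 2 of the 3 Th9 arrays), whereas the probe of the plasma cell receptor gene Tnfrsf17 was well above background on none of the 12 arrays. Sdc1, which encodes the plasma cell surface protein syndecan-1, went the other way: it read -3.33, -3.43 and -3.50 in Treg and -2.25, -2.19 and -3.17 in Th9 cultures and was higher in Th9 (0.89 ± 0.26, adjusted p = 0.0114; slide-blocked 0.63, adjusted p = 0.371) and in Th2 cultures (1.03 ± 0.26, adjusted p = 0.00504; slide-blocked 0.94, adjusted p = 0.0743). Of 9 myeloid and dendritic cell markers, 2 were higher in both cultures, Adgre1 (2.87 ± 0.30 in Th9 and 3.14 ± 0.30 in Th2, adjusted p = 1.22e-05 and 6.14e-06) and Cd68 (0.71 ± 0.23 and 0.85 ± 0.23, adjusted p = 0.0198 and 0.00777). In each culture 6 of these 9 were lower (66.7%), above the shares of all genes, and Lyz2 and Itgam were well above background in Treg cultures alone. The summed level of the 9 was 1.47 to 2.77 in Treg, 1.97 to 2.96 in Th9 and 2.38 to 2.89 in Th2 cultures. The part of such cells in the differences of the ER genes was not tested. In bulk RNA, fewer cells of a type and less RNA per cell cannot be told apart.

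**Figure D3:**
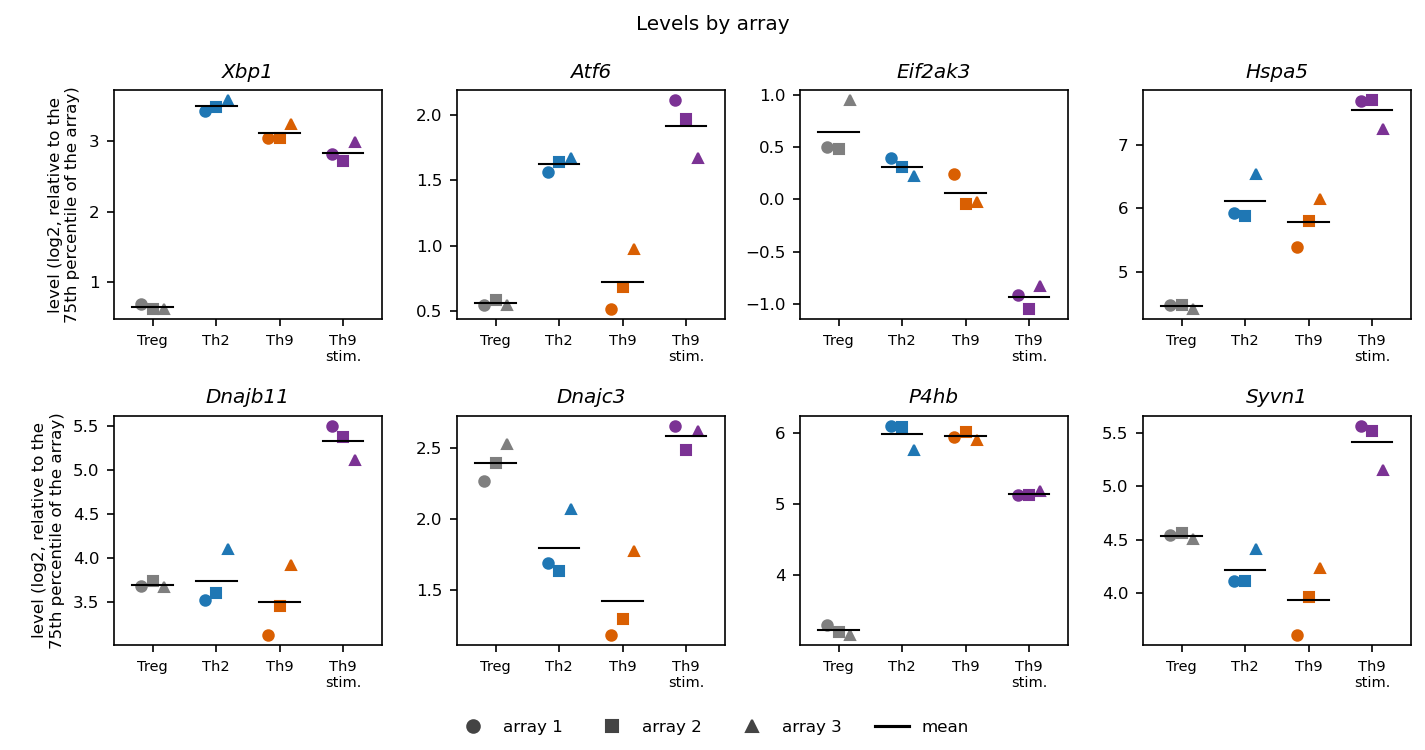
Levels of 8 of the genes on each array, as log2 relative to the 75th percentile of the array (y axis, with its own range in each panel), for Treg, Th2, Th9 and stimulated Th9 cultures; circles, squares and triangles are arrays 1, 2 and 3, and lines are group means. Xbp1 and P4hb separate Treg from all other arrays, Hspa5, Dnajb11 and Syvn1 are highest after stimulation, and Eif2ak3 is lowest there.

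Stimulation of Th9 cultures through CD3 for 6 h was followed by higher levels of most chaperone and cochaperone genes. The largest changes were those of Creld2 (3.73-fold), Dnajb11 (3.54-fold), Hspa5 (3.41-fold) and Manf (3.25-fold). Xbp1 and P4hb, the genes with the largest Th9 against Treg differences, were lower after stimulation, as were Eif2ak3 and Os9. In all, 18 of the 32 genes were higher (56.2%) and 4 lower (12.5%), beside 33.2% and 30.5% of all genes, with a median difference of 0.50 beside 0.02 over all genes. Of 19 cytokine and chemokine genes tested as cargo of the secretory route, 18 were higher and none was lower by the same test. The filter bears on that count: 9 of the 19 were well above background on all 12 arrays, and Ccl3, Il2 and Il3 on no unstimulated Th9 array, so the count is given as a description.

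Of the chaperones and cochaperones, 7 of 9 rose (77.8%) and none fell, beside 33.2% and 30.5% of all genes. All 9 had a difference above 0. Hspa5 read 7.69, 7.70 and 7.25 after stimulation, above every array of the other groups, with a difference of 1.77 ± 0.22 (adjusted p = 4.22e-05). Creld2, a protein of the ER that is induced under stress, read 3.30, 3.88 and 4.53 in Th9 and 6.04, 5.78 and 5.58 in stimulated cultures (1.90 ± 0.31, adjusted p = 0.000312). The Th9 arrays were spread over more than 1 log2 unit and the stimulated arrays lay above all of them. Dnajb11 read 3.13, 3.46 and 3.92 before and 5.50, 5.37 and 5.11 after stimulation (1.82 ± 0.21, adjusted p = 1.83e-05). This gene was not called between any of the unstimulated cultures. Manf rose by 1.70 ± 0.23, Hyou1 by 1.58 ± 0.31 and Dnajc3 by 1.16 ± 0.17 (adjusted p = 6.57e-05, 0.000936 and 0.000111). Dnajb9 rose by 0.65 ± 0.16 (adjusted p = 0.00386; slide-blocked 0.25, adjusted p = 0.184). Hsp90b1 (0.36 ± 0.16, adjusted p = 0.0634; 0.0391 without Th9 array 2) and Sdf2l1 (0.30 ± 0.33, adjusted p = 0.448) were not called.

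Both lectin chaperones rose, Calr from 4.31, 4.39 and 4.64 to 5.54, 5.37 and 5.24 (0.94 ± 0.16, adjusted p = 0.000404) and Canx by 0.57 ± 0.15 (adjusted p = 0.0061). The Canx call was lost with quantile normalization (0.29, adjusted p = 0.112) and with the slide term (0.53, adjusted p = 0.0862). Among the isomerases, Pdia6 rose from 4.49, 5.12 and 5.53 to 6.48, 6.38 and 6.04 (1.26 ± 0.24, adjusted p = 0.000906) and Pdia3 by 0.73 ± 0.14 (adjusted p = 0.00092). P4hb went down, from 5.95, 6.02 and 5.90 to 5.13, 5.12 and 5.18, without overlap (-0.81 ± 0.11, adjusted p = 5.36e-05). Its stimulated arrays were still far above the Treg arrays. Pdia4 was not called (0.27 ± 0.21, adjusted p = 0.287).

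The sensors moved in different directions. Atf6 rose from 0.51, 0.68 and 0.97 to 2.12, 1.97 and 1.67 (1.20 ± 0.14, adjusted p = 2.2e-05), and its stimulated arrays overlapped with the Th2 arrays. Eif2ak3 fell to -0.92, -1.05 and -0.83, below all other arrays, with a difference of -0.99 ± 0.14 (adjusted p = 0.000104). Ern1 rose by 0.37 ± 0.11 (adjusted p = 0.00985). Xbp1 read 2.81, 2.71 and 2.98 and was lower by -0.27 ± 0.10 (adjusted p = 0.0349). That call was lost with the slide term (-0.13, adjusted p = 0.468), with median scaling (-0.19, adjusted p = 0.176), with no filter on dim probes (adjusted p = 0.0595), with the 6 arrays of the comparison alone (adjusted p = 0.0961) and without Th2 array 2, Th9 array 3 or stimulated array 1 or 2 (adjusted p = 0.05, 0.123, 0.0854 and 0.129).

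Of the ERAD genes, Syvn1 rose from 3.61, 3.96 and 4.24 to 5.56, 5.52 and 5.15 (1.47 ± 0.17, adjusted p = 1.96e-05) and Derl2 by 0.66 ± 0.11 (adjusted p = 0.000235), although a dimmer probe of Derl2 was called lower (-0.38 ± 0.13, adjusted p = 0.0238). Os9 fell from 4.28, 4.29 and 4.52 to 3.74, 3.86 and 3.70 (-0.60 ± 0.10, adjusted p = 0.000275), and its other probes fell as well. Herpud1 (-0.14 ± 0.23), Edem1 (0.08 ± 0.11), Sel1l (-0.20 ± 0.19), Derl1 (0.26 ± 0.11) and Derl3 (-0.43 ± 0.40) were not called, with adjusted p from 0.0594 for Derl1 to 0.623 for Herpud1. Without Th9 array 3 or stimulated array 3, Derl1 was called (adjusted p = 0.0485 and 0.0218). Dimmer probes of Edem1 (0.61 ± 0.12, adjusted p = 0.00074) and Derl1 (0.43 ± 0.12, adjusted p = 0.00885) were called higher. The dimmest probe of Sel1l was called lower (-0.68 ± 0.21, adjusted p = 0.0151). Of the translocon genes, Ssr1 rose from 3.72, 3.80 and 3.77 to 4.53, 4.68 and 4.41 (0.78 ± 0.10, adjusted p = 3.43e-05). Dimmer probes of Ssr1 were not called (0.30 ± 0.13 and -0.33 ± 0.21, adjusted p = 0.0693 and 0.187). Nor were dimmer probes of Sec61a1 (0.10 ± 0.13 and 0.22 ± 0.17, adjusted p = 0.502 and 0.261). Sec61b (0.49 ± 0.10, adjusted p = 0.00148) and Sec61a1 (0.50 ± 0.15, adjusted p = 0.0126; 0.051 without Th9 array 1; 0.23 and adjusted p = 0.154 with quantile normalization; slide-blocked 0.25, adjusted p = 0.329) rose too, whereas the signal peptidase genes Sec11c (-0.00 ± 0.17, 95% interval -0.39 to 0.38) and Spcs2 (-0.04 ± 0.16, 95% interval -0.40 to 0.31) were not called.

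Slide-blocked, 15 genes were higher and 3 lower, beside 26.9% and 23.7% of all genes. The differences within the slide that held 3 Th9 arrays and 1 stimulated array are these same estimates, not a further check. All 22 called genes kept their sign there, with a median of 0.42 and with Hspa5 at 1.47, Creld2 at 1.67 and Syvn1 at 1.21. Without the arrays numbered 3, 22 genes were higher and 4 lower, with a median of 0.66. The B cell and plasma cell markers had a summed level of 5.62 to 15.2 in stimulated cultures. Of the 12, 7 were lower than in unstimulated Th9 cultures (58.3%, beside 30.5% of all genes). Sdc1 alone of them was higher, at -0.17, -0.03 and 0.20 after stimulation (2.53 ± 0.26, adjusted p = 8.26e-06). Their part in the result was not tested.

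**Figure D4:**
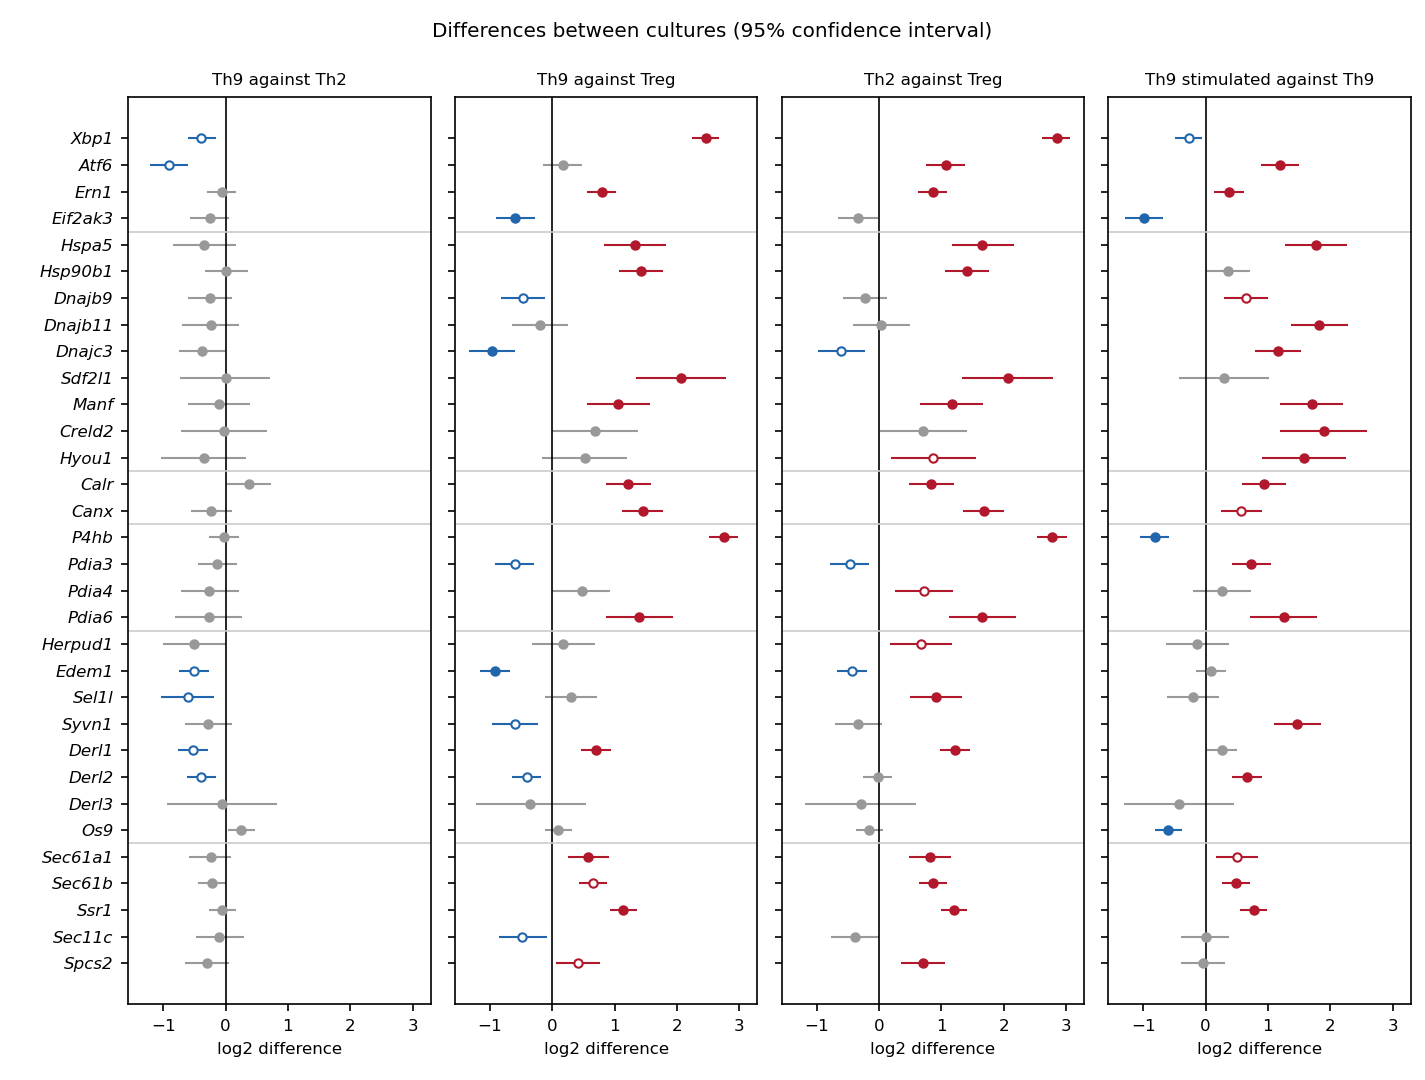
Log2 differences of the 32 genes in the 4 comparisons, with 95% confidence intervals from limma; red genes were called higher and blue genes lower at an adjusted p under 0.05, grey genes were not called, and an open circle marks a call that the fit with the slide term lost. All 6 calls between Th9 and Th2 cultures are open, and the red genes of the Treg comparisons are mostly filled.

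The genes fell into a few patterns when the comparisons were set side by side, with the caution that the Th9 arrays serve in both. Calr, Canx, Ern1, Hspa5, Manf, Pdia6, Sec61a1, Sec61b and Ssr1, 9 genes, stood above Treg in Th9 cultures and were higher again after stimulation. Slide-blocked, Sec61b lost the first of these calls and Canx and Sec61a1 the other. Derl2, Dnajb9, Dnajc3, Pdia3 and Syvn1, 5 genes, stood below Treg in Th9 cultures and were higher after stimulation, and of these Dnajc3 alone kept both calls when slide-blocked. P4hb and Xbp1 were higher in Th9 than in Treg cultures and lower after stimulation, and Xbp1 lost the call after stimulation when slide-blocked. Derl3 was called in no comparison, and its arrays spread from -2.22 to -0.97 within Th2 cultures.

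**Figure D5:**
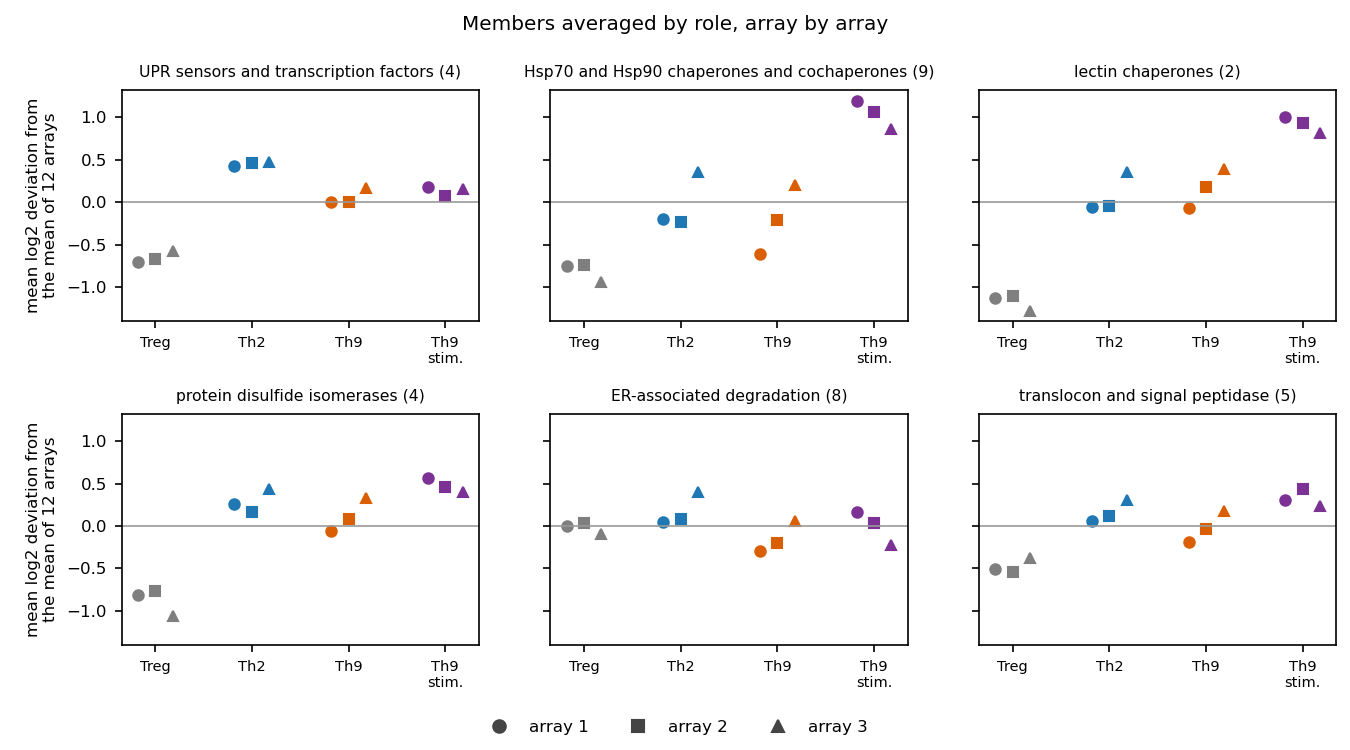
Mean log2 deviation of the members of each role (number of genes in the panel title) from their means over the 12 arrays, for each array of each group; circles, squares and triangles are arrays 1, 2 and 3. The 9 Hsp70 and Hsp90 chaperones and cochaperones range from -0.94 on a Treg array to 1.20 on a stimulated array, and the 8 ERAD genes from -0.30 to 0.40.

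The genes assigned to ATF6 and to XBP1 were then counted, with the assignment made from general knowledge and not from these arrays. The 12 ATF6-assigned genes (Hspa5, Hsp90b1, Calr, Pdia4, Hyou1, Herpud1, Sel1l, Creld2, Manf, Sdf2l1, Derl3 and Xbp1) are all members of the group. Of these, 6 were higher and none lower in Th9 than in Treg cultures, 10 were higher and none lower in Th2 than in Treg cultures, 5 were higher and 1 lower after stimulation, and 2 were lower and none higher in Th9 than in Th2 cultures. The shares higher were 50.0%, 83.3%, 41.7% and 0.00%, beside 28.8%, 29.3%, 33.2% and 7.76% of all genes, and the share lower in Th9 than in Th2 cultures was 16.7%, beside 9.25%. Slide-blocked, 6, 7, 5 and 0 were higher and none was lower, beside 17.6%, 24.1%, 26.9% and 1.05% of all genes higher. The lower gene after stimulation was Xbp1 itself. Their median difference was 0.88, 0.89, 0.33 and -0.18 in these comparisons. Derl3 was the single gene of the list below 0 against Treg cultures (-0.35 ± 0.40 in Th9 and -0.29 ± 0.40 in Th2), and it was not called.

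The 26 XBP1-assigned genes are J proteins, isomerases, translocon, signal peptidase and ERAD genes and other genes of the secretory route. Many, such as Dnajc3, Edem1 and Sec61a1, are members of the group. The others return in the lists of the wider pathway below, so these counts are not separate results. Of these, 14 were higher and 7 lower in Th9 than in Treg cultures, 16 and 4 in Th2 than in Treg cultures, and 16 and 3 after stimulation, while none was higher and 4 were lower in Th9 than in Th2 cultures. The shares higher were 53.8%, 61.5%, 61.5% and 0.00%, beside 28.8%, 29.3%, 33.2% and 7.76% of all genes. The shares lower were 26.9%, 15.4%, 11.5% and 15.4%, beside 35.3%, 33.5%, 30.5% and 9.25% of all genes. Slide-blocked, the counts were 13 and 2, 16 and 0, 13 and 3, and 0 and 0. The slide-blocked shares of all genes were 17.6%, 24.1%, 26.9% and 1.05% higher and 19.7%, 26.1%, 23.7% and 0.720% lower. Spcs3, a signal peptidase subunit (1.49 ± 0.10, adjusted p = 6.15e-07), and Ssr3, a translocon-associated subunit (1.38 ± 0.09, adjusted p = 3.7e-07), were among those higher in Th9 than in Treg cultures. Fkbp11, a prolyl isomerase of secretory cells, read -0.47, -0.65 and -0.12 in Th2, -2.09, -1.58 and -1.17 in Th9, 1.42, 1.52 and 1.08 in stimulated Th9 and -1.60, -1.55 and -1.83 in Treg cultures. It was lower in Th9 than in Th2 cultures (-1.20 ± 0.23, adjusted p = 0.00549; slide-blocked -0.72, adjusted p = 0.665) and rose after stimulation by 2.96 ± 0.23 (adjusted p = 1.06e-06).

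Over all genes, 33.2% were higher and 30.5% lower after stimulation, and 28.8% and 35.3% in Th9 than in Treg cultures. For Th2 against Treg the shares were 29.3% and 33.5%, and for Th9 against Th2 cultures 7.76% and 9.25%. Grouped by promoter, the 9 members with an ERSE had a median difference of 1.16 after stimulation, with 7 higher and none lower. The 17 members whose window had no ERSE had 0.27, with 7 higher and 4 lower. Of the 9, those not called were Hsp90b1 (0.36) and Derl3 (-0.43). In Th9 against Treg cultures the medians were 1.22 (5 higher, 2 lower) and 0.30 (7 higher, 5 lower), and the 2 lower were Dnajc3 and Syvn1. In Th2 against Treg cultures they were closer, 0.84 (5 higher, 1 lower) and 0.71 (10 higher, 2 lower), and in Th9 against Th2 cultures they were -0.23 (none called) and -0.25 (4 lower). The 6 members with no window had medians of 0.85 after stimulation (4 higher), 0.55 in Th9 against Treg (3 higher, 1 lower), 0.97 in Th2 against Treg (5 higher) and -0.29 in Th9 against Th2 cultures (2 lower). The 9 other genes of the genome-wide ERSE list that were tested are no members: of these, 1 was higher and 2 were lower after stimulation, with a median of -0.16, and 3 were higher and 2 lower in Th9 than in Treg cultures, with a median of 0.13. Of the 35 genes with the element, 18 were tested. Whether the promoter groups differ was not tested.

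The wider secretory pathway was followed in 114 further genes. Of these, 54 were higher and 15 lower in Th9 than in Treg cultures (median 0.31), 58 and 16 in Th2 than in Treg cultures (0.39), 54 and 23 after stimulation (0.29) and 3 and 10 in Th9 than in Th2 cultures (-0.08). The shares higher were 47.4%, 50.9%, 47.4% and 2.63%, beside 28.8%, 29.3%, 33.2% and 7.76% of all genes, and the shares lower were 13.2% in Th9 than in Treg cultures, 20.2% after stimulation and 8.77% in Th9 than in Th2 cultures, beside 35.3%, 30.5% and 9.25%. Slide-blocked, the counts were 41 and 7, 57 and 6, 41 and 18, and 0 and 0. Of all genes, 17.6%, 24.1%, 26.9% and 1.05% were then higher and 19.7%, 26.1%, 23.7% and 0.720% lower. Among oligosaccharyltransferase and glycan processing genes, which attach and trim sugars on new proteins, 11 of 18 were higher and none lower in Th9 than in Treg cultures, and 10 rose and 1 fell after stimulation. Mogs, the first glucosidase of glycan trimming, rose from 4.23, 4.61 and 4.89 to 6.91, 7.09 and 6.46 after stimulation (2.24 ± 0.19, adjusted p = 2.54e-06). Magt1, an oxidoreductase subunit of the transferase, was higher in Th9 than in Treg cultures by 1.29 ± 0.12 (adjusted p = 5.75e-06).

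Among 15 oxidative folding and other folding enzymes, 8 were higher and 3 lower in Th9 than in Treg cultures. These are 53.3% and 20.0%, beside 28.8% and 35.3% of all genes. Ero1a, the oxidase that recharges disulfide isomerases, showed a larger difference than any of the 32 genes. It read -0.01, -0.05 and 0.16 in Treg, 5.57, 5.64 and 5.72 in Th9, 6.32, 6.41 and 5.87 in Th2 and 4.63, 4.61 and 4.80 in stimulated Th9 cultures. It was higher in Th9 than in Treg cultures by 5.61 ± 0.14 (adjusted p = 1.21e-09) and fell after stimulation by -0.96 ± 0.14 (adjusted p = 0.00013). P4hb, whose product Ero1a oxidizes, was likewise higher in Th9 than in Treg cultures and lower after stimulation. Its relative Ero1b was lower in Th9 than in Treg cultures (-1.15 ± 0.21, adjusted p = 0.000754; slide-blocked -0.63, adjusted p = 0.234).

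The other UPR signalling genes include targets of the PERK branch. Ddit3, which encodes CHOP, read 1.05 to 1.15 in Treg, 2.88, 2.91 and 3.34 in Th9, 3.67, 3.78 and 3.91 in Th2 and 0.35, 0.48 and 0.47 in stimulated Th9 cultures. It was higher in Th9 than in Treg cultures by 1.95 ± 0.13 (adjusted p = 4.63e-07), lower than in Th2 cultures (-0.74 ± 0.13, adjusted p = 0.00379; slide-blocked -0.86, adjusted p = 0.272) and fell after stimulation by -2.61 ± 0.13 (adjusted p = 1.06e-07). Trib3, a pseudokinase induced by CHOP, fell by -2.91 ± 0.28 and Ppp1r15a, which helps restore translation, by -1.29 ± 0.14 (adjusted p = 5.83e-06 and 1.24e-05). Atf4, the transcription factor of this branch, was higher in Th9 than in Treg cultures by 2.40 ± 0.21 (adjusted p = 2.77e-06). Chac1, a target of the same branch, was higher in Th9 than in Treg cultures by 3.38 ± 0.50 (adjusted p = 0.000156). Of these 14 genes, 5 rose and 6 fell after stimulation (35.7% and 42.9%, beside 33.2% and 30.5% of all genes), with a median of 0.04.

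Of the 8 signal recognition particle genes, 6 rose and 1 fell after stimulation, and 4 were higher and 1 lower in Th9 than in Treg cultures. The other 12 translocon and signal peptidase genes had 6 higher (50.0%) and 3 lower (25.0%) in Th9 than in Treg cultures. After stimulation 4 were higher (33.3%), a share near that of all genes, and 2 lower (16.7%). Ssr2 was among the higher (1.44 ± 0.16, adjusted p = 1.49e-05). Among 16 further ERAD genes, 9 rose (56.2%) and 3 fell (18.8%) after stimulation. Vcp, the ATPase that pulls proteins out of the ER, went up from 3.81, 4.01 and 4.16 to 5.56, 5.60 and 5.54 (1.58 ± 0.10, adjusted p = 3.94e-07). Of 31 COPII and COPI vesicle genes, 14 were higher (45.2%) and 1 lower (3.23%) in Th9 than in Treg cultures. After stimulation 15 rose (48.4%) and 8 fell (25.8%), the latter not far below the 30.5% of all genes. Sec23b was among the rising (1.49 ± 0.16, adjusted p = 1.01e-05).

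Chaperones outside the ER moved as well. Of 21 cytosolic and mitochondrial chaperone genes, 16 were higher and 1 lower in Th9 than in Treg cultures (median 0.56). In Th2 cultures 18 were higher and none lower than in Treg cultures (0.95), and 17 rose and 1 fell after stimulation (1.05). The shares higher were 76.2%, 85.7% and 81.0%, beside 28.8%, 29.3% and 33.2% of all genes. Hspd1, the mitochondrial Hsp60, rose from 4.41, 4.51 and 4.71 to 7.72, 7.76 and 7.31 (3.05 ± 0.16, adjusted p = 1.23e-07). Hspa1a, an inducible cytosolic Hsp70, read -3.52, -3.37 and -3.78 in Treg, 4.13, 3.24 and 2.49 in Th9 and 5.61, 6.18 and 4.52 in Th2 cultures. It was higher than in Treg by 6.84 ± 0.44 in Th9 (adjusted p = 3.39e-07) and by 8.99 ± 0.44 in Th2 cultures (adjusted p = 5.65e-08). Th9 cultures had less of it than Th2 cultures (-2.15 ± 0.44, adjusted p = 0.00808; slide-blocked -1.97, adjusted p = 0.521). Beside these, the 9 ER chaperones and cochaperones had medians of 0.69, 0.87 and 1.58 in the same comparisons. Whether the ER genes moved apart from chaperones in general was not tested.

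Cargo and ER genes can be set side by side by group. The 19 cytokine and chemokine genes had a summed level of 17.9 to 23 on the Treg arrays, 120 to 137 on the Th9 arrays, 192 to 255 on the Th2 arrays and 513 to 1580 on the stimulated arrays. The 32 ER genes had summed levels of 336 to 344, 494 to 684, 623 to 740 and 880 to 1070, in the same order of groups, with an overlap between Th9 and Th2 arrays. A sum of linear signals is led by its brightest genes, such as Hspa5 at 7.69, 7.70 and 7.25 on the stimulated arrays. It does not show each gene: 15 of the 32 were higher and 8 lower in Th9 than in Treg cultures. Of the cargo genes, 11 were higher and 5 lower in Th9 than in Treg cultures, beside 28.8% and 35.3% of all genes. Th9 exceeded Th2 cultures for 2 and was below them for 7, beside 7.76% and 9.25% of all genes. Slide-blocked, those 7 ran from -1.08 for Il13 to 0.98 for Ccl4. Csf2 (0.06) and Ccl3 (0.14) changed sign as well, while the 2 higher genes, Il9 (4.89) and Il6 (3.63), kept theirs. Of the 5 lower than in Treg cultures, Csf2 turned to 1.18 when slide-blocked. The others kept their sign (Ccl3 -3.44, Il3 -2.50, Il2 -0.67 and Ccl4 -0.54). Il4 was at 3.96 in Th9, 5.03 in Th2 and 8.02 in stimulated Th9 cultures. Prdm1, which encodes the plasma cell factor BLIMP-1, was lower in Th9 than in Th2 cultures (-1.44 ± 0.25, adjusted p = 0.00394; slide-blocked -1.58, adjusted p = 0.254) and rose after stimulation (1.11 ± 0.25, adjusted p = 0.00281; slide-blocked 0.87, adjusted p = 0.0651). With 4 groups, the order of cargo and ER genes over groups is a description.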

How the data were processed

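Cy3-labelled RNA of 12 samples, 3 in each of 4 groups taken from the sample titles, was hybridised to one-colour Agilent arrays. The scanner tables deposited by the authors hold spot intensity, background-subtracted and spatially detrended within each array; the file headers name Agilent Feature Extraction 10.5.1.1. The table of the whole series deposited by the authors holds log2 values with near-equal medians (5.171 to 5.174), and its method is not given in the sources used here. Each of its columns tracked log2 signal of its own array (r of 0.9996 or more).

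From the intensity, log2 minus the array's 75th percentile (520.9 to 795.6) was taken. Control spots and outlier-flagged spots were left out, and probes well above background on at least 3 of 12 arrays were kept. Older names were matched through a RefSeq table: Manf was listed as Armet and Dnajc3 as Dnajc3a. limma 3.58.1 in R 4.3.3 fitted all arrays together (8 residual degrees of freedom, prior 2.51). On simulated data for Th9 against Treg with 17899 genes, 200 of them changed, 60.0% of changes of 1 log2 unit and 17.0% of those of 0.5 were recovered, with 4 false calls of 81; the arrays gave many more calls, so those shares do not carry over to them. All 32 genes are described. Of each other list, up to 4 called genes with the largest absolute differences in a comparison could be named, and Il9, Foxp3, Gata3, Il4, Irf4 and Prdm1 whatever their result; not all are. Markers of other cell types were named after their values were seen. Replicate numbers come from the titles, and for Th9 against Th2 alone every same-numbered pair correlated above 0.1. There they were treated as pairing in alternative fits, while the main fit left them out. The members, lists and tests were chosen with earlier results of these data known. Normalization, background correction, filter, probe choice, slide, replicate number and left-out arrays were varied. Summed levels are sums of linear signals relative to the 75th percentile.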

Additional observations from a re-analysis of the deposited data

How the results depend on the processing

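The counts of higher genes against Treg cultures and after stimulation stayed within 1.5 times under every alternative run, and the lower counts moved more. In Th9 against Th2 cultures, the number higher (main value 0) was 2 with normexp and 1 with quantile normalization, with the authors' table or without the arrays numbered 3, and 0 to 1 when single arrays were left out. The number lower (6) was 0 with the slide as a fixed block, 3 with only the 6 arrays compared, 2 when a 1.5-fold change was also required, and 3 to 8 with single arrays left out. In Th9 against Treg cultures, the number lower (8) was 3 with the slide block and 5 at 1.5-fold, and 6 to 8 with single arrays left out (higher: 14 to 17). In Th2 against Treg cultures, the number lower (3) was 6 with quantile normalization or the authors' table, 1 with median scaling, 5 with the mean of all probes, 0 with the slide block, 7 without the arrays numbered 3 and 1 at 1.5-fold, and 2 to 4 with single arrays left out (higher: 18 to 21). After stimulation the counts were 17 to 19 higher and 3 to 4 lower with single arrays left out. In Th9 against Treg cultures the called difference of Dnajb9 turned to 0.09 with the slide block, and Os9, not called before, was called at -0.3 with the mean of all probes. With the slide block, differences that were not called changed sign for 12 genes in Th9 against Th2, 2 in Th9 against Treg and 1 after stimulation. The cause was not tested, except that the slide block leaves fewer degrees of freedom and a larger SE. With the slide as a random block (correlation -0.00272) no call changed.

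The median of all genes moved from 0.02 to 0.12 with normexp after stimulation and from -0.08 to 0.02 with median scaling in Th2 against Treg cultures, where the members' median was 0.94. Over all arrays, the replicate block moved 1 call in Th9 against Th2 cultures (Sel1l, -0.61, adjusted p = 0.0693) and 1 in Th2 against Treg cultures (Sec11c, -0.38, adjusted p = 0.0183). The deviations of same-numbered arrays correlated at -0.02 to 0.41 (8 of 18 pairs over 0.1). The numbers were treated as pairing for Th9 against Th2 cultures alone, and only in alternative fits. In 26 of 36 comparisons of an array with another group, though, its own number was the best match. The 3 arrays per group limit the precision.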
